A study of Mus musculus with 8 samples.

Results

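The genes described are 10 markers of blood and spleen monocytes, 4 of the classical kind (Ly6c2, Fn1, F13a1 and Plac8) and 6 of the patrolling kind (Nr4a1, Treml4, Ace, Cx3cr1, Cebpb and Spn). They were chosen by symbol, and all 10 have a row among the 13786 protein-coding genes of the deposited count table. RNA was sequenced from CD11c-positive splenocytes of 4 C57BL/6 and 4 B6.SLE123 mice, all female and 7 weeks old, with no treatment. B6.SLE123 mice carry lupus susceptibility intervals on the C57BL/6 background and are a polygenic model of systemic lupus erythematosus, and C57BL/6 mice served as controls. Both strains were bought from the same supplier. The genotype field of the labels rises by 1 from mouse to mouse within each strain, so strain was taken from the sample titles and the stated design. The comparison asks how, at this young age, cells selected as dendritic cells differ between the strains.

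Monocytes leave the bone marrow as classical cells, which carry high surface Ly6C, enter inflamed tissue and can become macrophages or dendritic cells. Some classical cells instead convert to patrolling cells with low Ly6C, which crawl along the inner wall of vessels, clear debris from it and sense nucleic acids. The nuclear receptor NR4A1 is required for patrolling monocytes, C/EBPβ acts upstream of it, and the spleen holds a reservoir of monocytes of both kinds.

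Counts summed to between 25563070 and 37367094 per mouse, and no pair of mice within a strain differed by as little as counting noise, with a chi-square per degree of freedom of 4.96 to 18.9. Each mouse was therefore kept as a replicate, although p-values measure only the spread between these 8 samples. Levels are in CPM, the counts of a gene scaled by the library total and its TMM factor, and log2 fold changes are B6.SLE123 over C57BL/6, so negative values are lower in B6.SLE123. A gene was called when edgeR's quasi-likelihood F test gave a Benjamini-Hochberg adjusted p below 0.05 over all 13786 genes.

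The label of dendritic cells was checked against marker genes. Itgax, which encodes CD11c, averaged 1329 ± 77.9 CPM (SD over 4 mice) in C57BL/6 and 1543 ± 93.4 CPM in B6.SLE123, with a log2 fold change of 0.22 (SE 0.06) and an edgeR adjusted p of 0.00942. Markers of type 1 conventional dendritic cells summed to 3310 to 3825 CPM in C57BL/6 mice and 5403 to 7094 CPM in B6.SLE123 mice, most of it Wdfy4 and Ppt1. Of these 10 markers, 8 were higher in B6.SLE123, 1 was lower and 1 was not called. Over all genes 26.7% were higher and 26.6% lower, which holds beside the other marker counts too. Those of type 2 conventional dendritic cells summed to 2343 to 2501 CPM in C57BL/6 and 1482 to 1811 CPM in B6.SLE123 mice, most of it Sirpa, which macrophages also carry. Other cell types were present as well. Red pulp macrophage markers, led by Vcam1 and Slc40a1, summed to 11182 to 14331 CPM in C57BL/6 mice and 1540 to 3095 CPM in B6.SLE123 mice, and all 11 in the table were lower in B6.SLE123. Several of the monocyte genes are also expressed by macrophages, dendritic cells, lymphocytes or stromal cells, so none of the values below is a count of monocytes. In RNA from a mixed sample, fewer cells of a type and less RNA per cell cannot be told apart.

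Of the 10 genes, 4 were lower in B6.SLE123 mice (Fn1, Nr4a1, Treml4 and Cebpb), 1 was higher (Plac8) and 5 were not called (Ly6c2, F13a1, Ace, Cx3cr1 and Spn). Over all genes 53.4% were called, 26.6% lower and 26.7% higher, so 5 of 10 is near the background and is not a result about monocyte genes as a class. Fn1 and Treml4 were more than 2-fold lower, against 8.29% of all genes called lower by that much. That number was 1 without C57BL/6 replicate 3, when the log2 fold change of Treml4 was -0.99, and 3 without B6.SLE123 replicate 1, when that of Cebpb was -1.17. The strains did not overlap for 5 of the 10, the same 5 that were called, against 48.9% of all genes. The median log2 fold change was -0.08 over the 4 classical genes, -0.50 over the 6 patrolling genes, -0.11 over all 10 and -0.0019 over all genes tested. The median of the classical genes was 0.07 without C57BL/6 replicate 1 and -0.21 without C57BL/6 replicate 3, and that of all 10 was -0.39 without B6.SLE123 replicate 1 and 0.0049 without B6.SLE123 replicate 2.

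**Figure D1:**
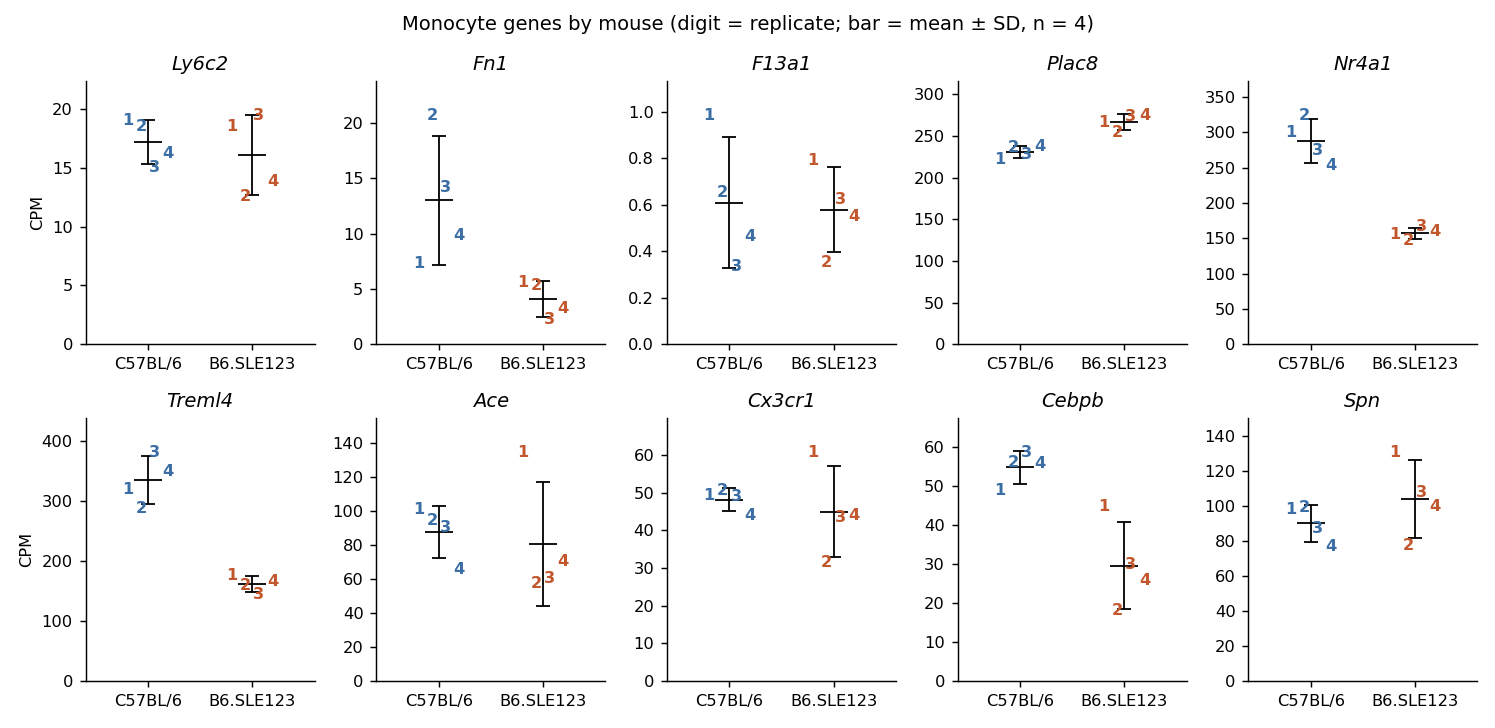
Level of each gene in CPM (vertical axes, each from 0) in each mouse, with strains on the horizontal axis, a digit for each of 4 replicates and bars for the mean ± SD. Nr4a1 and Treml4 stand in separate ranges in the strains, at 253 to 324 against 146 to 166 CPM and at 288 to 382 against 144 to 176 CPM, while Ly6c2, F13a1, Ace, Cx3cr1 and Spn overlap.

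The classical genes did not move together. Plac8 was higher, Fn1 was lower, and Ly6c2 and F13a1 were not called.

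Ly6c2 (chromosome 15, 75108158 to 75111970, minus strand, mm10) encodes the surface protein by which classical monocytes are sorted, and is also expressed by plasmacytoid dendritic cells, plasma cells and some T cells. Its level was 19.0, 18.5, 15.1 and 16.2 CPM in the C57BL/6 mice. The B6.SLE123 mice were at 18.5, 12.6, 19.5 and 13.9 CPM. The highest and the lowest of the 8 values were both in B6.SLE123, and the strains overlapped. The log2 fold change was -0.09 (SE 0.14, 95% interval -0.40 to 0.21, edgeR adjusted p = 0.600). Of the 817 distinct 50-base stretches in its transcripts, 31.2% also occur in transcripts of other genes, mostly its close copy Ly6c1, so reads could be split between them. Ly6c1 itself was at 0.122 to 0.492 CPM, and with both genes summed the log2 fold change was -0.10.

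Plac8 (chromosome 5, 100553725 to 100572245, minus strand) encodes a small cysteine-rich protein abundant in classical monocytes, and is also expressed by plasmacytoid dendritic cells, neutrophils and lymphocytes. Its level was 222, 236, 227 and 238 CPM in the C57BL/6 mice. Among B6.SLE123 mice the levels were 266, 254, 273.0 and 274.7 CPM. All 4 B6.SLE123 mice were above all 4 C57BL/6 mice, but the gap was small, from 238 to 254 CPM. The means were 231 ± 7.54 and 267 ± 9.44 CPM, 1.16-fold higher in B6.SLE123, and the log2 fold change was 0.21 (SE 0.04, edgeR adjusted p = 0.00161). Plac8 was the steadiest of the 10 genes, with a coefficient of variation of 3.27% in C57BL/6 and 3.54% in B6.SLE123 mice.

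Fn1 (chromosome 1, 71585520 to 71653200, minus strand) encodes fibronectin, an extracellular matrix protein that classical monocytes, macrophages, fibroblasts and endothelial cells all make. Its level was 7.34, 20.7, 14.2 and 9.86 CPM in the C57BL/6 mice. The B6.SLE123 mice were at 5.57, 5.35, 2.28 and 3.19 CPM. All 4 B6.SLE123 mice were below the lowest C57BL/6 mouse, and C57BL/6 replicate 2 was the highest of all. The means were 13.02 ± 5.84 and 4.10 ± 1.62 CPM, 3.15-fold lower in B6.SLE123, with a log2 fold change of -1.66 (SE 0.34, edgeR adjusted p = 0.00182). Fn1 had the largest fold change and, among the 5 called genes, the widest interval, from -2.40 to -0.91. Without C57BL/6 replicate 2 the log2 fold change was -1.35.

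Collagen genes, which monocytes do not make in quantity, were also high in C57BL/6 replicate 2. Col1a1 was at 2.16, 22.6, 1.37 and 4.27 CPM in the C57BL/6 mice and at 1.52, 1.21, 0.178 and 1.42 CPM in the B6.SLE123 mice. The stromal and endothelial list, led by Pecam1 and Stab2, had 7 of 10 genes lower and 1 higher in B6.SLE123, beside 26.6% and 26.7% of all genes. Its summed levels were 410 to 462 CPM in C57BL/6 and 161 to 209 CPM in B6.SLE123 mice. Endothelial genes of that list were mixed. Pecam1 and Stab2 were lower, Cdh5 (log2 fold change -0.02) was not called and Kdr (0.87) was higher. Fn1 was lower, as were collagen genes, red pulp macrophage genes and some endothelial genes. In C57BL/6 replicate 3, however, Fn1 was at 14.2 CPM while Col1a1 was the lowest of its strain, and the strains overlapped for Col1a1. Ly6c2 and F13a1 were not called and Plac8 was higher. Of 14 further classical genes described below, 2 were lower (Vcan at -3.03 and Mgst1 at -1.71), 1 was higher and 11 were not called. The part of each cell type in the fall of Fn1 was not tested. The collagens were picked for display, and Cdh5 and Kdr were named, after their values were seen.

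F13a1 (chromosome 13, 36867178 to 37050244, minus strand) encodes the A subunit of coagulation factor XIII, made by monocytes, some tissue macrophages and megakaryocytes. It had 26, 17, 11 and 14 counts in the C57BL/6 mice. The B6.SLE123 mice had 25, 13, 21 and 14 counts. These are the lowest counts of the 10 genes, and the strains overlapped across nearly their whole range. In CPM, the means were 0.609 ± 0.282 and 0.578 ± 0.183, with a log2 fold change of -0.06 (SE 0.37, edgeR adjusted p = 0.906). The 95% interval, from -0.87 to 0.76, reaches from a fall to a rise of more than 1.5-fold in either direction, so these 8 mice do not settle its direction.

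Among the patrolling genes, both the transcription factors Nr4a1 and Cebpb and the surface receptor gene Treml4 were lower in B6.SLE123 mice. The membrane protein genes Ace, Cx3cr1 and Spn were not called. Promoter sequence is shown for the called genes Nr4a1, Cebpb, Treml4 and Plac8, for the letters named beside each, and was not used in any test. Fn1, also called, gave no promoter.

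Nr4a1 (chromosome 15, 101254269 to 101274795, plus strand) encodes the orphan nuclear receptor NR4A1 (NUR77), needed for patrolling monocytes and also an immediate early gene that many cells switch on within minutes of stimulation or handling. Its level was 299, 324, 274 and 253 CPM in the C57BL/6 mice. Among B6.SLE123 mice the levels were 155, 146, 166 and 160 CPM. The lowest C57BL/6 mouse was well above the highest B6.SLE123 mouse. The means were 288 ± 30.7 and 157 ± 8.37 CPM, 1.83-fold lower in B6.SLE123, with a log2 fold change of -0.88 (SE 0.07, edgeR adjusted p = 3.30e-06). Leaving out any mouse kept the log2 fold change between -0.94 and -0.81.

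The 250 bases in front of the RefSeq start of Nr4a1 (GRCm38.p6, chr15:101266596-101266845, plus strand) lie inside the span of the gene in the table, between its exons. They are shown because the promoter of this stimulus-responsive gene holds repeats of TGACG, the core of the cyclic AMP response element. Capitals mark TGACG on either strand, which reads CGTCA when it is on the opposite one.

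Nr4a1: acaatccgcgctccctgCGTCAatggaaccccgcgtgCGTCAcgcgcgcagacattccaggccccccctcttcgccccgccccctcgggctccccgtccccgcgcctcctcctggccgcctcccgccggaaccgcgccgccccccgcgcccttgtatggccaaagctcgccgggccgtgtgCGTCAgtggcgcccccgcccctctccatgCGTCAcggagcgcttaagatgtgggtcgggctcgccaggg

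The Nr4a1 window held TGACG 4 times. At least 1 match was found in 17.9% of the 27025 mouse promoters searched at this length, and the share with 4 was not counted. The Nr4a1 window held no match of AAGGTCA, the element that NR4A receptors bind, which occurs in 4.05% of promoters.

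Cebpb encodes C/EBPβ, a transcription factor of monocytes, macrophages and granulocytes that is required for patrolling monocyte survival. It is a gene of 1 exon on chromosome 2 (167688915 to 167690418, plus strand). Its level was 48.7, 56.0, 58.6 and 55.7 CPM in the C57BL/6 mice. The B6.SLE123 mice were at 44.6, 17.98, 29.9 and 25.8 CPM. All B6.SLE123 mice were below all C57BL/6 mice, but B6.SLE123 replicate 1 was close to them and the other 3 were much lower. The means were 54.8 ± 4.26 and 29.6 ± 11.2 CPM, 1.86-fold lower in B6.SLE123, with a log2 fold change of -0.89 (SE 0.21, edgeR adjusted p = 0.00410). Without B6.SLE123 replicate 1 it was -1.17, and without B6.SLE123 replicate 2 it was -0.72.

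Exons of the neighbouring gene Tmem189, on the opposite strand, overlap Cebpb over 312 bases, 20.7% of its exon bases. Other overlaps on the opposite strand were smaller, from 1.10% of exon bases in F13a1 to 5.58% in Ace. The libraries came from a stranded kit, but whether counting used the strand is not given in the sources used here. Tmem189, named for this overlap after its values were seen, was at 43.4 ± 2.03 CPM in C57BL/6 and 41.4 ± 0.991 CPM in B6.SLE123 mice, with a log2 fold change of -0.07 (edgeR adjusted p = 0.242). The promoter of Cebpb (GRCm38.p6, chr2:167688665-167688914, plus strand) is shown because it shares TGACG with that of Nr4a1, again in capitals on either strand.

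Cebpb: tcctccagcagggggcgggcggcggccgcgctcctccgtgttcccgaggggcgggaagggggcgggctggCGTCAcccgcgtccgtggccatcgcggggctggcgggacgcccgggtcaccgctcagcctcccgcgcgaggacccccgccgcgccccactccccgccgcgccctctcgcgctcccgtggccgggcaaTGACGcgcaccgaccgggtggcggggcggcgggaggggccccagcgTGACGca

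The Cebpb window held TGACG 3 times, where 17.9% of promoters hold at least 1 match. No match of TTNNGCAA, a pattern that C/EBP proteins bind, was found in this window, and 9.55% of promoters hold one.

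Treml4 (chromosome 17, 48264295 to 48275360, plus strand) encodes a receptor of the TREM family that binds dying cells and is found on patrolling monocytes, splenic macrophages and CD8-positive dendritic cells. Its level was 319, 288, 382 and 350 CPM in the C57BL/6 mice. Among B6.SLE123 mice the levels were 176, 158, 144 and 166 CPM. The strains were far apart, with a gap from 176 to 288 CPM. The means were 335 ± 40.2 and 161 ± 13.4 CPM, 2.08-fold lower in B6.SLE123, with a log2 fold change of -1.05 (SE 0.09, edgeR adjusted p = 3.01e-06). Leaving out any mouse gave -1.12 to -0.99.

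The promoters of Treml4 (GRCm38.p6, chr17:48264045-48264294, plus strand) and Plac8 (GRCm38.p6, chr5:100572246-100572455, minus strand, printed in the direction of the gene) are shown together. Both hold GAGGAA, the letters that the myeloid factor PU.1 prefers. Whether these letters bear on the change of either gene was not tested. Capitals mark GAGGAA on either strand, which reads TTCCTC on the opposite one.

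Treml4: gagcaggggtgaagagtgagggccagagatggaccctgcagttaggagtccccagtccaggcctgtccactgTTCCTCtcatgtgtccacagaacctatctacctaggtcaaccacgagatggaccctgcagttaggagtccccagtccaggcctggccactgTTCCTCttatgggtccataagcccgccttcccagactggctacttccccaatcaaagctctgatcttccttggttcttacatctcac

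Plac8: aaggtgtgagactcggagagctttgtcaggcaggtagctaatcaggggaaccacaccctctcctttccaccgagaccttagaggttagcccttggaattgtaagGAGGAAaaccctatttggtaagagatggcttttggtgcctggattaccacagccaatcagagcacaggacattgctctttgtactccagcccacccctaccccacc

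Treml4 held 2 matches and Plac8 held 1, while 23.1% of all promoters held GAGGAA over 250 bases and 19.5% over 210 bases, the length of the Plac8 window. The promoters of Nr4a1 and Cebpb held none. Of the promoters not printed, Ace held 2 matches, Ly6c2 and F13a1 held 1 each, and Spn held none. These are matches of letters and not sites shown to be bound.

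Ace (chromosome 11, 105967945 to 105989964, plus strand) encodes angiotensin-converting enzyme, which is high on patrolling monocytes and on endothelium. Its level was 101, 94.4, 90.0 and 65.4 CPM in the C57BL/6 mice. The B6.SLE123 mice were at 135, 57.1, 60.2 and 70.1 CPM. B6.SLE123 replicate 1 was the highest of the 8 mice, while the other 3 were within or below the range of C57BL/6. The log2 fold change was -0.12 (SE 0.25, 95% interval -0.67 to 0.42, edgeR adjusted p = 0.700). Without B6.SLE123 replicate 1, Ace passed the threshold with a log2 fold change of -0.49 and an edgeR adjusted p of 0.0124, and without B6.SLE123 replicate 2 the value was 0.0046.

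Cx3cr1 (chromosome 9, 119901616 to 120069879, minus strand) encodes the fractalkine receptor, which keeps patrolling monocytes alive and on the vessel wall and is also on some dendritic cells and macrophages. Its level was 49.2, 50.6, 49.0 and 43.9 CPM in the C57BL/6 mice. Among B6.SLE123 mice the levels were 60.8, 31.5, 43.5 and 43.9 CPM. The C57BL/6 mice were close together, while B6.SLE123 replicate 1 lay well above and replicate 2 well below all of them. The log2 fold change was -0.10 (SE 0.15, 95% interval -0.44 to 0.24, edgeR adjusted p = 0.599).

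Spn (chromosome 7, 127132232 to 127137823, minus strand) encodes CD43, a heavily glycosylated surface protein that is high on patrolling monocytes and is also on T cells and other leukocytes. Its level was 98.3, 99.0, 87.1 and 76.7 CPM in the C57BL/6 mice. The B6.SLE123 mice were at 131, 77.4, 108 and 99.99 CPM. B6.SLE123 replicate 2 lay among the C57BL/6 mice and the other 3 were above them. The log2 fold change was 0.20 (SE 0.14, 95% interval -0.10 to 0.51, edgeR adjusted p = 0.231). Without B6.SLE123 replicate 2, Spn passed the threshold at 0.32, with an edgeR adjusted p of 0.0292.

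For single genes, an exact two-sided permutation test over the 8 mice gave an unadjusted p = 0.0286 for each of the 5 called genes, the smallest value that 4 mice against 4 allow. This value follows from the lack of overlap already given, which 48.9% of all genes share, so it adds no separate support. It gave 0.314 for Spn and between 0.514 and 0.943 for the other 4.

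Levels differed widely between the genes when divided by exon length. In CPM per kilobase of exon, C57BL/6 mice had the most Treml4, at 168 ± 20.1, followed by Plac8 at 145 ± 4.74. Their ranges overlapped in C57BL/6. In B6.SLE123 mice Plac8 was first, at 168 ± 5.93, and Treml4 followed at 80.8 ± 6.73 with no overlap. Nr4a1 came next in both strains, at 82.0 and 44.7 CPM per kilobase. Cebpb, at 36.4 in C57BL/6 and 19.7 in B6.SLE123, stood above Spn, at 19.3 and 22.2, only in the first strain, and their ranges overlapped in the second. Ace was at 16.6 and 15.2, and its range overlapped that of Spn in both strains. Below them came Cx3cr1 at 10.7 and 9.97, Ly6c2 at 6.28 and 5.88, Fn1 at 1.11 and 0.351 and F13a1 at 0.0903 and 0.0858 CPM per kilobase. In C57BL/6 mice no other neighbours in this order overlapped, and in B6.SLE123 mice Cebpb with Ace, Ace with Cx3cr1 and Cx3cr1 with Ly6c2 overlapped too.

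Within B6.SLE123, the same 2 mice stood at the ends for most of the genes. B6.SLE123 replicate 1 was the highest of its strain for 7 of the 10, against 27.2% of all genes, and for 5 of the 6 patrolling genes. B6.SLE123 replicate 2 was the lowest for 8 of the 10, against 26.1% of all genes, and again for 5 of the 6 patrolling genes. Summed over the 6 patrolling genes, the B6.SLE123 mice were at 702, 488, 552 and 566 CPM. The C57BL/6 mice were at 916, 912, 940 and 845 CPM, all above them. Treml4 and Nr4a1 carried this separation, since the other 4 patrolling genes summed to 297, 299.95, 285 and 242 CPM in the C57BL/6 mice and 371, 184, 241 and 239.7 CPM in the B6.SLE123 mice, which overlap. This order was not particular to the 10 genes. Replicate 1 was also highest and replicate 2 lowest of B6.SLE123 in the sums of B cell, T cell and plasmacytoid dendritic cell markers. Of 14 further patrolling and 14 further classical genes described below, replicate 2 was lowest for 9 of each list. Other lists had other orders. The interferon response list ran the other way within B6.SLE123, with sums of 259, 442, 342 and 393 CPM in replicates 1 to 4. Type 1 conventional dendritic cell markers were highest in replicate 2. The 10 genes share the same 8 libraries, so their ranks are not independent of each other.

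The spread differed by gene. In B6.SLE123 mice, Ace had a coefficient of variation of 45.3% and Cebpb one of 37.9%, against 17.7% and 7.77% in C57BL/6 mice. Nr4a1 and Treml4 had 5.34% and 8.33% in B6.SLE123 mice and 10.7% and 12.0% in C57BL/6 mice.

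**Figure D2:**
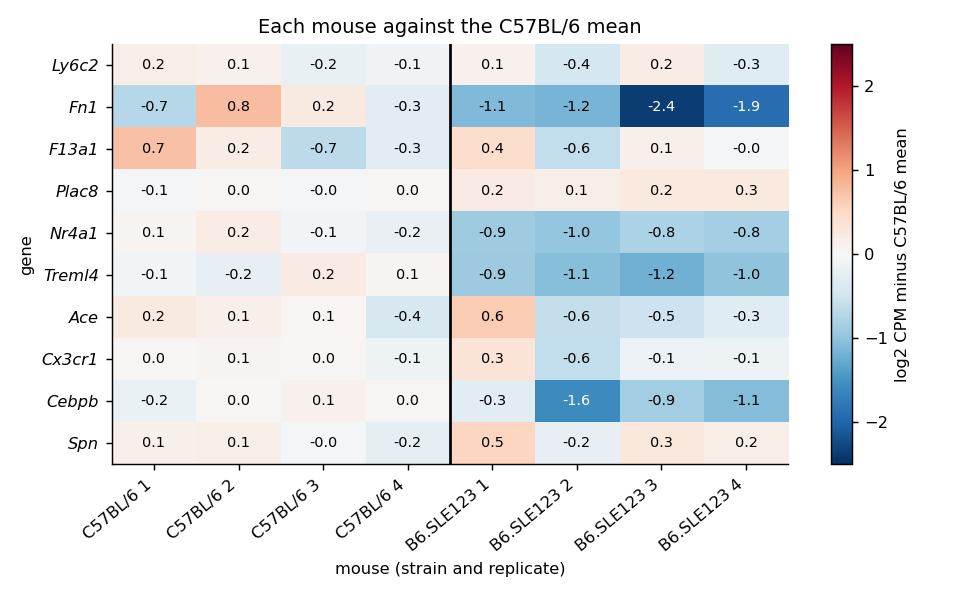
Log2 CPM of each gene (rows) in each mouse (columns) as a difference from the gene's C57BL/6 mean, on the colour scale and in the digits of each cell. Within B6.SLE123, replicate 1 is the highest mouse for 7 of the 10 genes and replicate 2 the lowest for 8 of the 10.

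**Figure D3:**
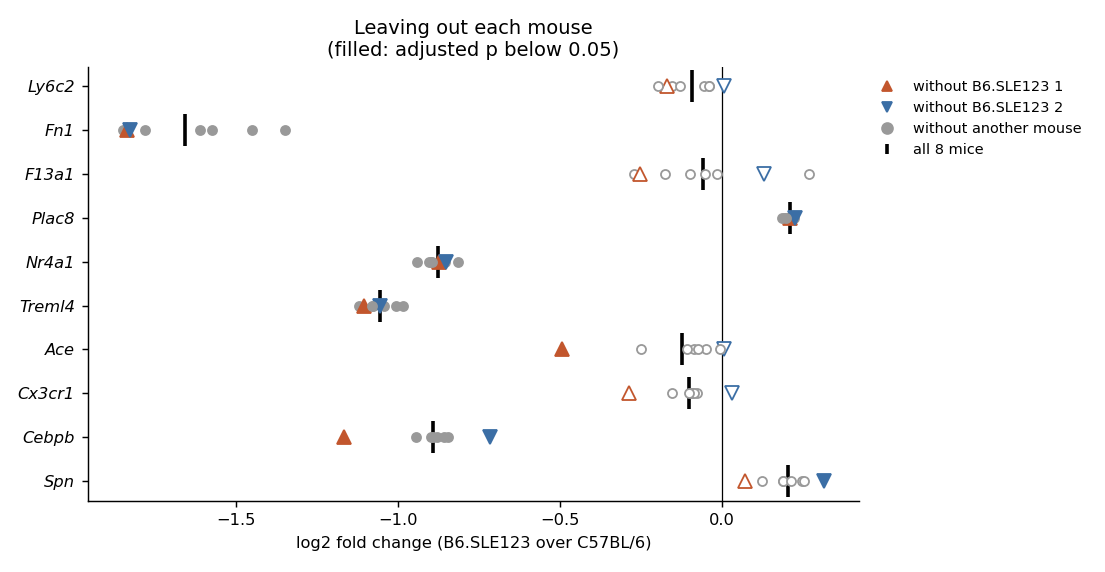
Log2 fold change of each gene (horizontal axis) with all 8 mice and with each mouse left out in turn. Nr4a1 stays between -0.94 and -0.81 and Treml4 between -1.12 and -0.99, while Ace moves between -0.49 and 0.0046.

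In a list of 14 further genes used as patrolling monocyte markers, more were lower than higher in B6.SLE123. Of the 14, 9 were lower, 2 were higher and 3 were not called, with a median log2 fold change of -0.75 beside -0.0019 over all genes. Over all genes 26.6% were lower and 26.7% higher, which holds beside the lists that follow too. Some of the 14 are shared with macrophages or lymphocytes. All 11 red pulp macrophage markers and 7 of 8 B cell markers were lower as well, and the part of those cells was not tested. Adgre4, which encodes the adhesion receptor FIRE, fell from 457 ± 51.4 to 108 ± 25.2 CPM, with a log2 fold change of -2.08 (SE 0.16, edgeR adjusted p = 1.86e-06). Fcgr4, an activating Fc receptor of patrolling monocytes and macrophages, fell from 88.1 ± 9.83 to 23.5 ± 4.86 CPM (log2 fold change -1.91). The lectin gene Clec4a3 and the receptor gene Cd300e also fell, at -1.52 and -1.13. Smaller falls were those of Ear2, an eosinophil-type ribonuclease, at -1.01, Pou2f2, the transcription factor OCT2, at -0.95, Fabp4, a fatty acid binding protein, at -0.83, Hes1, a Notch target, at -0.67, and Cd300ld at -0.54. The genes that rose were Dusp16, a phosphatase of stress kinases, at 0.43, and Itgal, the integrin chain by which patrolling cells crawl and which lymphocytes share, at 0.34. Eno3 (0.16), S1pr5 (-0.12) and Ceacam1 (-0.33) were not called, and S1pr5, the receptor that lets patrolling monocytes leave the marrow, was at 4.999 to 13.5 CPM in B6.SLE123 mice. The number lower ranged from 8 to 11 when a mouse was left out, with 11 reached without B6.SLE123 replicate 1.

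Of 14 further classical monocyte genes, 2 were lower, 1 was higher and 11 were not called, with a median of -0.20. Vcan, the matrix proteoglycan versican, fell from 1.62 ± 0.602 to 0.191 ± 0.0605 CPM (log2 fold change -3.03, SE 0.36), with as few as 3 counts in a mouse. Mgst1, a glutathione transferase of membranes, fell from 17.9 ± 3.86 to 5.51 ± 1.52 CPM (log2 fold change -1.71). Ms4a4c, a membrane protein gene, rose from 83.1 ± 8.78 to 114 ± 10.2 CPM (log2 fold change 0.46). Ccr2, the chemokine receptor that brings classical monocytes out of the marrow, was at 54.0 ± 5.51 and 44.3 ± 8.29 CPM, with an edgeR adjusted p of 0.0637. Lyz2, lysozyme, the most abundant of the list, was at 424 ± 68.4 and 370 ± 84.1 CPM and was not called. The number lower was 6 without B6.SLE123 replicate 1, and the number higher was 2 without C57BL/6 replicate 2 or without B6.SLE123 replicate 4.

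**Figure D4:**
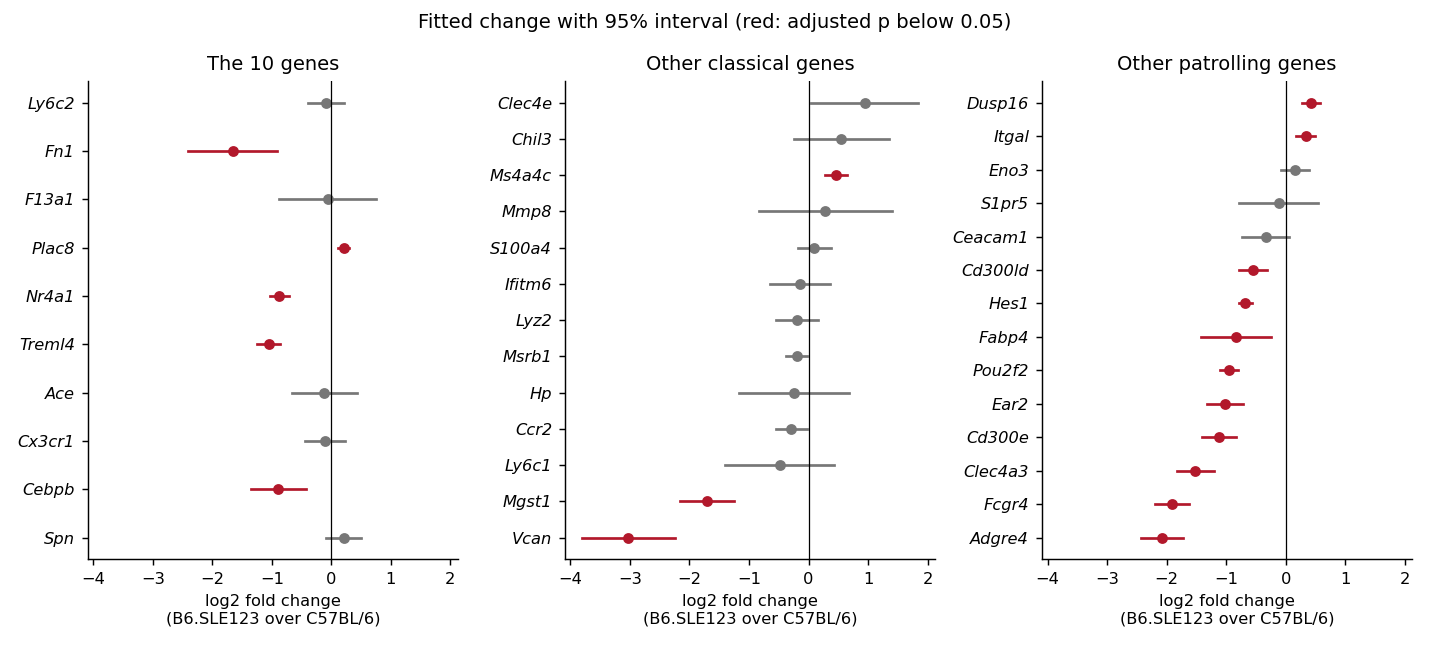
Log2 fold change, B6.SLE123 over C57BL/6 (horizontal axes), of the 10 genes, of 13 other classical and of 14 other patrolling monocyte genes, with points for the edgeR estimate, lines for its 95% interval and red for an adjusted p below 0.05. Of the 14 patrolling genes, 9 lie to the left in red, down to Adgre4 at -2.08, while 10 of the 13 classical genes shown are grey.

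Of 14 receptors and transcription factors that direct monocyte development, 8 were lower, 5 were higher and 1 was not called, with a median of -0.26. Csf1r, the receptor on which patrolling monocytes and macrophages depend, fell from 2324 ± 230 to 515 ± 134 CPM (log2 fold change -2.18). Csf1r is also high in red pulp macrophages, and its fall stood beside that of all 11 macrophage markers. Klf2, which acts in patrolling monocytes, fell by 0.71 on the log2 scale, Klf4 by 0.36 and Cebpa by 0.60. Zeb2 fell by 1.16, Id3 by 0.78 and Csf2ra by 0.16 on the same scale. Irf8 (0.48), a factor that type 1 dendritic cells also need, rose, as did Gfi1 (0.52), Irf5 (0.19) and Spi1 (0.14), which encodes PU.1. The relatives of Nr4a1 did not follow it. Nr4a3 rose from 43.9 ± 4.36 to 79.2 ± 12.9 CPM (log2 fold change 0.85, SE 0.11, edgeR adjusted p = 7.51e-05), and Nr4a2 was at 2.76 ± 0.266 and 2.59 ± 0.429 CPM and was not called. The number of regulators that were higher was 3 without C57BL/6 replicate 1 or without B6.SLE123 replicate 4.

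Of 6 ligands listed for monocyte receptors, 3 were in the table. Cx3cl1, the ligand of CX3CR1, rose from 1.32 ± 0.215 to 2.07 ± 0.630 CPM (log2 fold change 0.62, edgeR adjusted p = 0.0464), with overlapping strains. Ccl2, a ligand of CCR2, had 1 to 7 counts per mouse, and Csf1 was at 7.06 ± 1.36 and 5.63 ± 0.784 CPM, neither of them called. Among 6 integrin chains that bind fibronectin or act in monocyte adhesion, Itga4 (0.39) and Itga5 (0.19) were higher, Itgam (-0.30), Itgb3 (-0.29) and Itgb2 (-0.21) were lower, and Itgb1 (-0.02) was not called. Itga4 and Itga5 encode alpha chains of fibronectin receptors, but the other listed chains did not rise. A link of these chains to the fall of Fn1 was not tested.

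Nr4a1 was also read beside the other immediate early genes. Of 12 such genes, 8 were lower, 1 was higher and 3 were not called, with a median of -0.83 on the log2 scale. Their summed levels were 2112 to 2664 CPM in C57BL/6 and 1246 to 1754 CPM in B6.SLE123 mice. Zfp36, which encodes an RNA-binding protein that ends cytokine messages, fell from 776 ± 64.4 to 322 ± 51.8 CPM (log2 fold change -1.27), and Junb fell by 0.34 on the log2 scale. Fos (-1.28) and Egr1 (-1.61), picked after their values were seen, were lower too. The 1 higher gene was Egr3 (0.26), and the 3 not called were Fosb (-0.93), Dusp1 (0.05) and Atf3 (-0.02). They were also named after their values were seen. The share of the fall of Nr4a1 that goes with this group, or with the macrophage genes, was not tested.

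**Figure D5:**
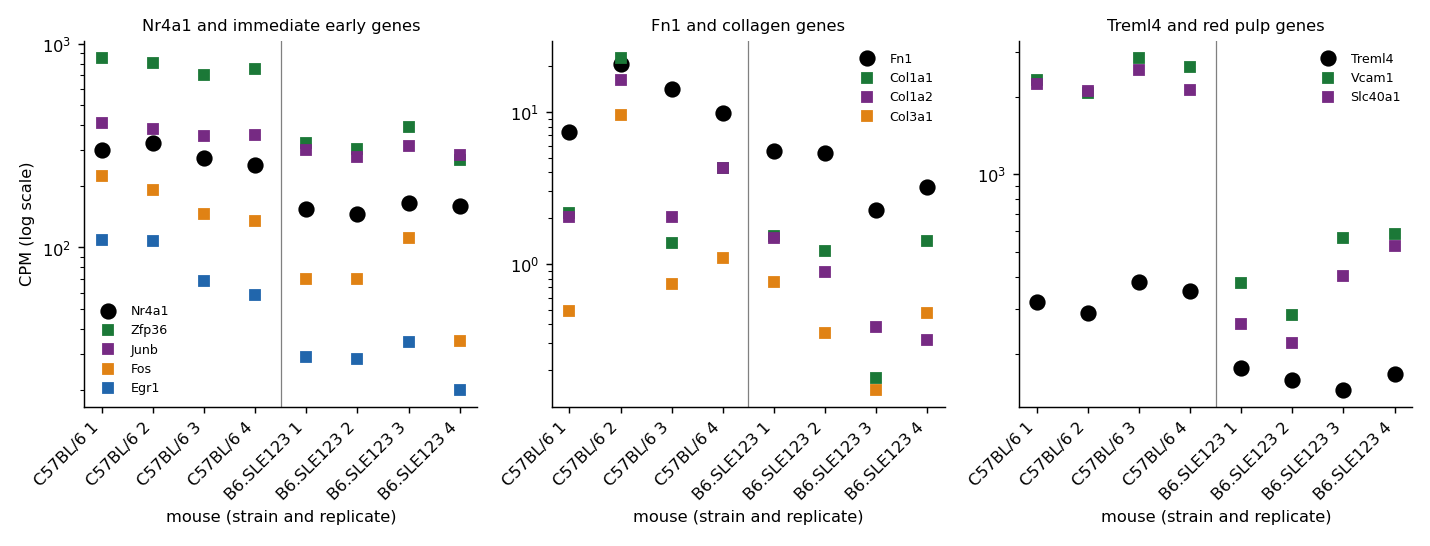
CPM on a log scale (vertical axes) in each mouse (horizontal axes) for Nr4a1 with 4 of the lower immediate early genes, Fn1 with 3 collagen genes and Treml4 with the red pulp macrophage genes Vcam1 and Slc40a1. C57BL/6 replicate 2 is highest for both Fn1 (20.7 CPM) and Col1a1 (22.6 CPM), while Vcam1 fell from a mean of 2471 to 453 CPM and Treml4 from 335 to 161 CPM.

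Markers of other cells that express some of these genes gave mixed values. Neutrophil markers summed to 128 to 140 CPM in C57BL/6 and 35.5 to 58.2 CPM in B6.SLE123 mice, with 3 lower and 3 higher of 9, and Ly6g and Elane have no row in the table. Most of that sum was Csf3r and Mmp9, both lower and both also expressed by monocytes or macrophages. The granule genes Camp, Ngp and Ltf, named after their values were seen, were higher. They had only 3 to 21, 9 to 75 and 10 to 88 counts per mouse, and the strains overlapped for each. Plasmacytoid dendritic cell markers, of a cell type that shares Ly6c2 and Plac8, summed to 321 to 341 and 278 to 330 CPM, with 3 lower and 2 higher of 8. Plasma cell markers were lower for 2 and higher for 3 of 8, with sums of 296 to 314 and 261 to 335 CPM. Megakaryocyte and platelet markers, beside which F13a1 is read, summed to 44.6 to 54.3 and 25.2 to 29.6 CPM, most of it Vwf, which endothelium also makes, and 5 of the 10 listed have no row in the table. T cell markers, beside which Spn is read, summed to 54.8 to 62.1 and 53.7 to 64.4 CPM, with 2 lower and 1 higher of 8. B cell markers were lower for 7 of 8, and type 2 conventional dendritic cell markers for 3 of 9. No NK cell marker of 8 was called by edgeR, with 1 at an unadjusted p below 0.05, and 0 were called by DESeq2 or limma-voom. Interferon response genes were lower for 3 of 9 and higher for 0. The part of these cells in the values of the 10 genes was not tested.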

How the data were processed

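RNA-seq of CD11c-positive splenocytes was available for 8 mice, 4 per strain. Before deposit, the authors used cutadapt for trimming, STAR for alignment against mm10 and featureCounts for gene counts. Their versions and strand setting are not given in the sources used here. The deposited table holds raw counts for 13786 protein-coding genes, each with a median of at least 5 counts in 1 strain or the other. Its columns from the authors' DESeq2 comparison (mean normalized signal, log2 fold change with its error, test score, p-value, adjusted p-value and fold change as a ratio) were not used. Coordinates of the 10 genes in the table equal those of GENCODE M21.

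Counts were scaled by TMM and tested across all genes, without a filter, in R 4.3.3 by the quasi-likelihood F test of edgeR 4.0.16, adjusted by Benjamini-Hochberg, after the code was tested on simulated data. Plotted log2 CPM used a prior count of 2. Single genes were also compared by exact permutation tests. Alternatives were relative log expression factors, library totals alone, a minimum of 10 counts per sample, a replicate block, the tests of DESeq2 1.42.0 and of voom in limma 3.58.1, Ly6c2 and Ly6c1 summed, and each mouse left out. Promoters came from RefSeq (GRCm38.p6) and were cut where an exon of GENCODE M21 began; motifs were searched on both strands. Of the 10 genes, 8 gave a promoter; Fn1 and Cx3cr1 did not.

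The 10 genes and the gene lists were chosen with earlier results of these data known, so they are described by counts and medians beside all genes. The rule for naming took all 10 genes, the genes of the 5 pathway lists, Ly6c1 and the 2 most abundant genes of each marker list. Itgax, Tmem189, Fos, Egr1, Egr3, Fosb, Dusp1, Atf3, Camp, Ngp, Ltf, Cdh5, Kdr, the collagens and listed genes without a row were named in addition. Of the listed genes, 2 are counted in their lists but not reported here.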

Additional observations from a re-analysis of the deposited data

Results flagged for a closer look

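Ace in B6.SLE123 replicate 1, at 135 CPM, stood apart from the other mice of its strain, whose median with it was 65.1 CPM. Its gap to the nearest mouse was 0.832 of the whole range of the strain, just past Dixon's 95% critical value for 4 samples. This was the only such value among 20 sets of 4 mice tested (10 genes in each strain), and chance gives about 1 in 20. Without this mouse the log2 fold change of Ace was -0.49, with an edgeR adjusted p of 0.0124, in place of -0.12 and 0.700.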

How the results depend on the processing

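Over 15 settings, 134 of 141 fold changes of single genes kept direction and call. Of 164 recomputed counts and medians, 154 stayed within set limits. The limit was 1.5 times for counts and, for medians, the SD of the per-mouse median within strains. Direction was not required of medians, and the median of the classical genes changed sign, to 0.07, without C57BL/6 replicate 1. Fn1, Nr4a1, Treml4, Cebpb and Plac8 kept direction and call in every setting. With a replicate block, 5 further classical genes were lower in place of 2 and 2 were higher in place of 1, and 7183 genes in all were called in place of 7356. DESeq2 also gave 2 further classical genes higher. The numbers were not taken to pair the mice, since deviations of same-numbered mice correlated at 0.0784 to 0.152 and not above 0.1 in every pair; all 8 mice correlated best with their own number, which is a hint from the data and not from the design. Leaving out 1 mouse moved the number of the 10 genes over 2-fold from 1 to 3, their median log2 fold change from -0.39 (without B6.SLE123 replicate 1) to 0.0049 (without B6.SLE123 replicate 2), further classical genes lower from 2 to 6 and higher from 1 to 2, and regulators higher from 3 to 5. Of the genes not called, 4 changed direction without B6.SLE123 replicate 2, to 0.0052 for Ly6c2, 0.13 for F13a1, 0.0046 for Ace and 0.029 for Cx3cr1, and F13a1 was at 0.27 without C57BL/6 replicate 1. Ace moved from -0.49 to 0.0046, F13a1 from -0.27 to 0.27, Ly6c2 from -0.20 to 0.0052 and Cx3cr1 from -0.29 to 0.029. Ace passed the threshold without B6.SLE123 replicate 1 and Spn (0.32) without B6.SLE123 replicate 2. The causes were not tested. F13a1, with 11 to 26 counts per mouse, has the largest counting error of the 10 genes; its spread between mice was not divided into counting error and other variation.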
